A study of Rattus norvegicus with 29 samples.

Results

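The open chromatin around Sdk2 was described over 44 open chromatin regions (OCRs) of rat chromosome 10. They were all rows of the study's table of 98237 consensus OCRs that overlapped chr10:102057000-102557000 (rn6), a window of 250 kb to each side of one OCR at chr10:102306830-102307559, which the study places in an intron of Sdk2 and which is called the Sdk2 OCR here. The other 43 OCRs are named by the distance in kb from its centre, with a minus sign toward lower coordinates, where 22 of them lay, and a plus sign toward higher coordinates, where 21 lay. The study had named the Sdk2 OCR from these same samples, so its DG contrast below is not independent of how it was chosen. The direction that the study gave for it is not reported here, and the sign found below should not be taken for it.

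The 29 ATAC-seq libraries came from adult male Sprague-Dawley rats, with 8 animal numbers in their peak names. METH rats received (+)-methamphetamine hydrochloride at 10 mg/kg in 4 intraperitoneal injections given 2 h apart, and saline rats received 1 mL/kg of saline on the same schedule. Tissue was taken the day after the last injection, and nuclei of frozen tissue were tagged with the omni-ATAC protocol, in which a transposase cuts accessible DNA. There were 4 saline and 4 METH libraries for each of the dentate gyrus (DG), the nucleus accumbens (NAc) and Ammon's horn (CA), while the subventricular zone (SVZ) gave 3 saline libraries and 2 METH libraries. Sprague-Dawley is an outbred stock, the labels name no engineered allele, and the libraries of one rat recur in several regions. Each library held between 7.55 and 19.4 M reads in OCRs (M, 1000000 reads), with a median of 11.8 M. The peak names carried 2 spellings of one prefix, which put replicates 1 and 2 of DG, NAc and CA in one set of libraries (set 1) and replicates 3 and 4 in another (set 2), while 1 SVZ saline library was in set 1 and the other SVZ libraries were in set 2. No label says what the spelling stands for. The tissue labels were not checked against marker genes, because no gene annotation of rn6 was used here.

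Sdk2 encodes sidekick cell adhesion molecule 2, a transmembrane protein of the immunoglobulin superfamily that binds copies of itself on neighbouring cells. It is best known from the retina, where sidekick proteins help matching neurons to meet in the same synaptic layer. An open stretch of intronic or intergenic DNA can act as an enhancer for a gene nearby or far away, and ATAC-seq reads count how often the transposase reached it, without saying which gene it serves. In the RefSeq gene order of a later rat assembly, GRCr8, Sdk2 lies on the minus strand between a predicted gene and Rpl38, a protein of the large ribosomal subunit, on the other side, and 2 lncRNA genes lie inside it. The next named protein-coding genes beyond the predicted one are Cdc42ep4, which encodes an effector of the GTPase Cdc42, and Cpsf4l. Beyond Rpl38 comes Ttyh2, of the tweety family of membrane proteins. The OCRs were not assigned to exons, introns or promoters, since these positions belong to another build than the files.

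The 44 OCRs covered 33.9 kb, or 6.78% of the 500 kb window, where the median occupied stretch of the same length held 15 OCRs. They were 167 to 1586 bp wide, with a median of 682 bp beside 662 bp over all OCRs, and the gaps between them ran from 89 bp to 37.1 kb. Their mean accessibility over the 29 libraries ran from 1.68 to 51.9 CPM (reads per 1000000 reads of a library, scaled by the upper quartile), with a median of 4.64 CPM beside 4.28 CPM over all OCRs. Per kb of OCR, the medians were 7.54 CPM in the window and 7.07 CPM over all OCRs. The neighbourhood thus held about as much signal per OCR as the table as a whole, in a denser cluster of OCRs.

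A few strong OCRs stood among many weak ones. Of the 44, 11 reached a mean of 10 CPM and 23 stayed under 5 CPM. OCR -106.8 kb (chr10:102199733-102201025) was the strongest at 51.9 CPM, and OCR -177.7 kb (chr10:102128741-102130326) was the widest at 1586 bp. The Sdk2 OCR had a mean of 4.22 CPM, which was rank 25 of 44 and above 49.3% of all OCRs, with 16 to 180 reads in a library. It was therefore a site of middling strength, with few reads behind each of its values. The authors' peak caller found peaks at 17 to 41 of the 44 OCRs in a library, with a median of 28. Of the 44, 10 had a peak in all 29 libraries, whereas the Sdk2 OCR had one in 10 libraries.

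The first question was whether the METH binge changed accessibility in the DG, the part of the hippocampus that receives the main cortical input and keeps producing neurons in adult rats. At the Sdk2 OCR, the 4 DG saline libraries stood at 7.81, 4.39, 6.39 and 6.45 CPM. The 4 DG METH libraries stood at 2.75, 2.15, 6.99 and 2.48 CPM. METH replicates 1, 2 and 4 lay below every saline library, and METH replicate 3 lay inside the saline range, so the groups overlapped. The means were 6.26 CPM in saline and 3.59 CPM in METH, a log2 fold change of -0.80 (SE 0.40, n = 4 per group), which did not pass the test (adjusted p = 0.493, edgeR quasi-likelihood test). Among all OCRs the smallest adjusted p in DG was also 0.493. OCR -56.0 kb and OCR +133.7 kb, described below, share this value, so it does not rank them. In such bulk tissue, fewer cells that hold the site open and less opening per cell cannot be told apart.

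Library differences moved with this value. The share of each library's OCR reads that fell in the strongest 10% of OCRs was 52.4%, 58.1%, 47.3% and 48.4% in the DG saline libraries. It was 62.4%, 59.0%, 47.1% and 56.9% in the DG METH libraries. The 3 METH libraries with the low Sdk2 OCR values had shares from 56.9% to 62.4%, and METH replicate 3 had the lowest share of the 8; the part of this share in the result was not tested. Without METH replicate 3 the log2 fold change was -1.34 (SE 0.40, adjusted p = 0.104). Within a set, here and below, each group of DG, NAc or CA held only 2 libraries. Within set 1 alone the log2 fold change was -1.31 (SE 0.48), and within set 2 it was -0.44 (SE 0.47). It was -0.59 (SE 0.37) with loess offsets in place of upper-quartile scaling and -0.67 (SE 0.41) with DESeq2. It was negative in every alternative tried, from -1.34 to -0.44, but all of these drew on the same DG libraries. With 5 RUVr factors, estimated from the residuals as covariates after the study's way of normalizing, it was -0.87 (SE 0.24) with an adjusted p of 0.00773, still outside the limit of 0.001 used here for a differentially accessible region (DAR).

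**Figure D1:**
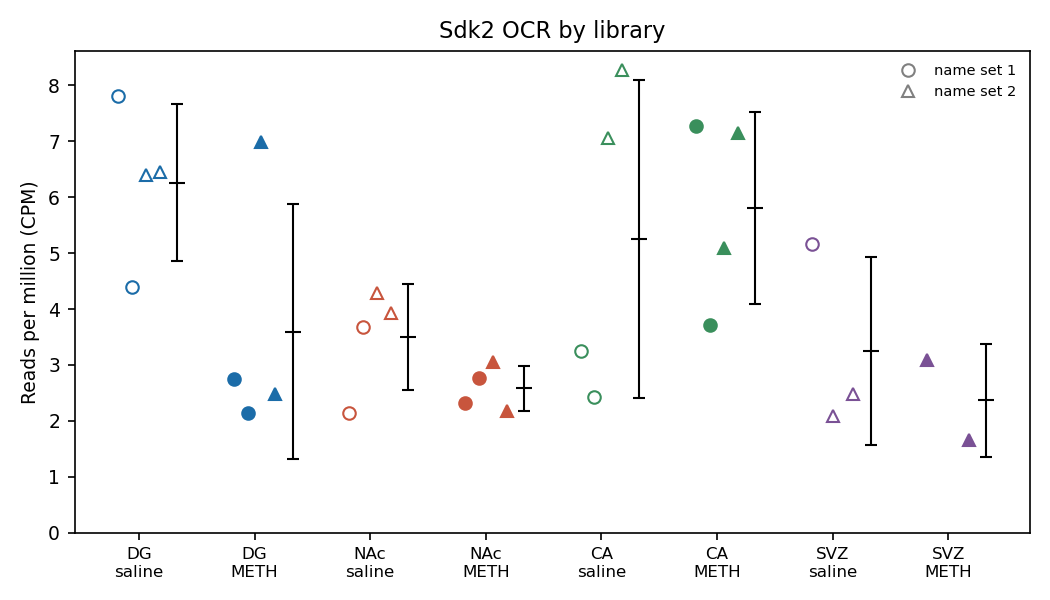
Accessibility of the Sdk2 OCR in each of the 29 libraries (y axis, CPM) by region and treatment; circles are set 1, triangles set 2, open symbols saline and filled ones METH, and bars give the mean and SD. In DG, 3 METH points lie between 2.15 and 2.75 and 1 lies at 6.99, within the saline range of 4.39 to 7.81.

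The Sdk2 OCR was followed by its closest neighbours only in part. OCR -0.7 kb (chr10:102306164-102306740), separated from it by 89 bp, stood at 5.05, 4.39, 3.19 and 5.49 CPM in DG saline and at 1.29, 3.10, 4.33 and 3.05 CPM in DG METH. Its log2 fold change of -0.63 (SE 0.43) had the same sign. OCR +1.8 kb (chr10:102308532-102309447), on the other side, had a log2 fold change of 0.25 (SE 0.34), from a mean of 6.52 to 7.75 CPM. None of these differences exceeded the spread between libraries by the test across all OCRs.

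Across the window, no OCR was a DAR in DG (fold change above 1.5 and adjusted p under 0.001), as was the case for 0.0% of all OCRs. Of the 44, 17 had a positive and 27 a negative log2 fold change, with a median of -0.16 beside -0.15 over all OCRs tested. With loess offsets in place of upper-quartile scaling, the median over all OCRs moved to 0.01. There were 3 OCRs lower with METH at an unadjusted p under 0.05, or 6.82% of the window beside 6.28% of all OCRs, and none was higher, beside 3.57% of all OCRs. The 3 became 8 without METH replicate 3, where 19.7% of all OCRs were lower, and 0 without METH replicate 4, where 2.65% were. A fold above 1.5 was reached by 9 OCRs toward lower values, beside 21.6% of all OCRs, and by 1 toward higher values, beside 9.34%. The counts toward lower values were near the background. Those toward higher values were 0 and 1 of 44, small counts whose distance from the background was not tested. At an unadjusted p under 0.05, 0 to 2 window OCRs were higher when a library was left out. With loess offsets, 8.09% of all OCRs were higher at that limit.

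The 3 OCRs with an unadjusted p under 0.05 in DG were OCR -56.0 kb, OCR -177.7 kb and OCR +96.3 kb. OCR -56.0 kb (chr10:102250719-102251584) stood at 4.57, 3.93, 5.15 and 3.74 CPM in saline and at 2.67, 1.72, 3.45 and 0.858 CPM in METH, which are counts of 9 to 51 reads. Every METH library lay below every saline library, METH replicate 3 included, and the log2 fold change was -1.0 (SE 0.38, adjusted p = 0.493). It was -0.95 within set 1 and -1.04 within set 2. OCR -177.7 kb fell outside such a clean order, with 7.81, 12.0, 7.73 and 14.2 CPM in saline and 3.36, 9.03, 8.07 and 3.14 CPM in METH, for a log2 fold change of -0.82 (SE 0.35). OCR +96.3 kb (chr10:102403211-102403719) was weak in DG, with means of 2.49 and 1.29 CPM and a log2 fold change of -0.95 (SE 0.45).

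OCR -171.1 kb (chr10:102135517-102136712) was the other OCR whose DG groups did not overlap. Its saline libraries were close together at 12.4, 13.0, 12.4 and 12.2 CPM, and its METH libraries stood at 5.94, 11.1, 10.8 and 5.05 CPM, so that 2 of them lay just under the saline range and 2 far under it. The log2 fold change was -0.60 (SE 0.31). Such separation toward lower values was seen at 2.01% of all OCRs, and toward higher values at 0.524% of all OCRs and at none of the 44.

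The largest fall by estimate in DG was at OCR +156.2 kb (chr10:102463088-102463749), whose log2 fold change of -1.09 had an SE of 0.70. Its saline libraries ran from 1.64 to 9.01 CPM and its METH libraries from 0.602 to 4.73 CPM, so the groups overlapped widely, and it was -0.49 without saline replicate 4. The 2 largest rises by estimate were 0.68 (SE 0.37) at OCR +232.9 kb (chr10:102539830-102540297) and 0.58 (SE 0.29) at OCR -125.4 kb (chr10:102181447-102182051). The first was 0.23 without METH replicate 4. At OCR -125.4 kb the saline libraries stood at 3.05, 5.12, 6.39 and 4.54 CPM and the METH libraries at 8.17, 6.71, 3.84 and 9.82 CPM. Here METH replicate 3 was again the library nearest to saline, now as the lowest of its group. The strongest OCR of the window, OCR -106.8 kb, had means of 54.5 and 54.6 CPM in DG.

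OCR +133.7 kb (chr10:102440319-102441523), 1205 bp wide, is described in DG because it differed most between regions, as given further on. Its DG saline libraries stood at 20.8, 17.3, 21.0 and 25.6 CPM. Its DG METH libraries stood at 5.25, 13.2, 22.0 and 7.43 CPM, with replicates 1, 2 and 4 under the saline range and replicate 3 inside it, as at the Sdk2 OCR. The log2 fold change was -0.83 (SE 0.43, adjusted p = 0.493), and it was -1.05 within set 1, -0.67 within set 2 and -1.30 without METH replicate 3. With 5 RUVr factors it became -0.93 (SE 0.18, adjusted p = 0.000302), which made it the one DAR of the window in that fit, where 4.24% of all OCRs were DARs. Its call in DG thus depended on whether those factors were fitted, and DESeq2, edgeR with TMM or loess scaling and the fits that left out a library called no OCR of the window in DG.

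**Figure D2:**
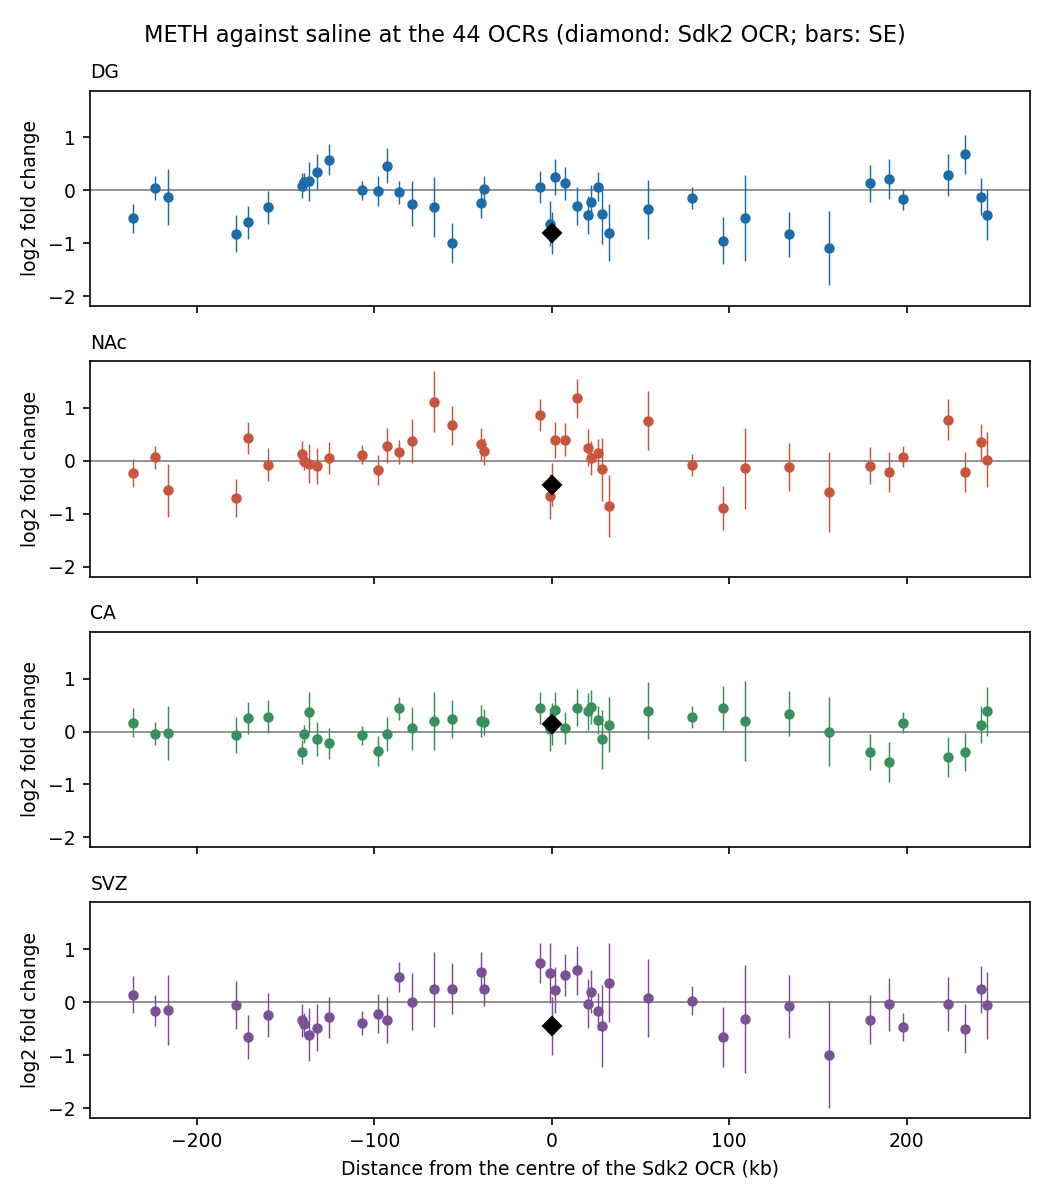
Log2 fold change of METH against saline (y axis) at each of the 44 OCRs by distance from the Sdk2 OCR (x axis, kb), with a panel for each region, bars of 1 SE and a diamond at the Sdk2 OCR. In DG 27 of the 44 estimates lie below 0 and the diamond is at -0.80; in CA 28 lie above 0.

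In the NAc, a part of the ventral striatum that receives dopamine fibres and is central to the rewarding action of METH, the largest estimates of the window were rises. OCR +14.4 kb (chr10:102321297-102321886) had 3.21, 2.44, 1.98 and 2.62 CPM in saline and 6.85, 6.19, 6.65 and 3.50 CPM in METH. The groups did not overlap, and the log2 fold change was 1.18 (SE 0.37, adjusted p = 1.0). It was 1.20 within set 1 and 1.14 within set 2. The authors' caller found a peak there in 0 of 4 NAc saline libraries and in 4 of 4 NAc METH libraries, while the same OCR had peaks in all 8 DG and all 8 CA libraries. Among all OCRs the smallest adjusted p in NAc was also 1.0, so the value was one of the differences that the test left unresolved.

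OCR -6.8 kb (chr10:102299955-102300899) was the other OCR higher in NAc at an unadjusted p under 0.05. It stood at 5.06, 5.30, 4.57 and 6.17 CPM in saline and at 10.2, 8.31, 14.0 and 5.99 CPM in METH, with METH replicate 4 inside the saline range. The log2 fold change was 0.87 (SE 0.30, adjusted p = 1.0). OCR +223.4 kb (chr10:102530434-102530773) was weaker, at 2.05, 1.53, 2.11 and 1.93 CPM in saline and 4.43, 3.60, 2.86 and 2.25 CPM in METH, and its groups did not overlap. At OCR -66.1 kb (chr10:102240713-102241497) the log2 fold change of 1.12 (SE 0.58) rested on METH replicate 3 at 6.74 CPM, while the other METH libraries stood at 1.61, 1.75 and 2.18 CPM and the saline libraries ran from 0.917 to 2.24 CPM; without that library the log2 fold change was 0.39.

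The 2 largest falls by estimate in NAc were at OCR +96.3 kb and OCR +32.1 kb. OCR +96.3 kb stood at 4.09, 2.95, 8.04 and 6.63 CPM in saline and at 3.63, 4.15, 1.20 and 2.80 CPM in METH, a log2 fold change of -0.89 (SE 0.42, adjusted p = 1.0). Within set 1 its sign turned, to 0.14. OCR +32.1 kb (chr10:102339032-102339621) had a log2 fold change of -0.85 (SE 0.59), from means of 1.85 to 1.02 CPM. The Sdk2 OCR stood at 2.14, 3.67, 4.29 and 3.93 CPM in NAc saline and at 2.32, 2.77, 3.05 and 2.18 CPM in NAc METH, a log2 fold change of -0.45 (SE 0.41) with overlapping groups.

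Over the window, NAc had no DAR, beside 0.0% of all OCRs. One OCR was lower and 2 were higher with METH at an unadjusted p under 0.05, beside 1.42% and 1.03% of all OCRs. A fold above 1.5 was reached by 5 OCRs toward lower values, or 11.4% beside 8.79% of all OCRs. It was reached by 6 toward higher values, or 13.6% beside 4.23% of all OCRs. Groups did not overlap at 2 OCRs toward higher values, beside 1.04% of all OCRs, and at none toward lower values, beside 1.91%. The median log2 fold change was 0.06 in the window and -0.01 over all OCRs.

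In CA, the hippocampal fields next to the DG, the estimates were small. At the Sdk2 OCR the saline libraries stood at 3.25, 2.43, 7.05 and 8.27 CPM and the METH libraries at 7.28, 3.71, 5.10 and 7.15 CPM. The log2 fold change was 0.14 (SE 0.39, adjusted p = 1.0). The 2 saline libraries of set 1 were both lower than the 2 of set 2, and the log2 fold change was 0.95 within set 1 and -0.32 within set 2. The direction in CA was therefore not settled by these libraries.

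The largest CA estimates in the window were 0.47 (SE 0.32) at OCR +22.3 kb (chr10:102328921-102330143) and 0.45 (SE 0.30) at OCR -6.8 kb toward higher values. Toward lower values they were -0.57 (SE 0.38) at OCR +189.8 kb (chr10:102496390-102497671) and -0.48 (SE 0.38) at OCR +223.4 kb. OCR +189.8 kb showed the same division of CA saline as the Sdk2 OCR but upside down, with 30.9 and 40.0 CPM in the set 1 libraries and 10.6 and 9.78 CPM in those of set 2. Its METH libraries stood at 17.1, 19.8, 15.5 and 9.15 CPM, so that replicates 1, 2 and 3 lay between the saline sets and replicate 4 lay below both. Within set 2 the log2 fold change was 0.27. Without saline replicate 2 it was -0.15 at OCR +189.8 kb and -0.12 at OCR +223.4 kb, and without METH replicate 2 it was 0.23 at OCR +22.3 kb.

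No CA OCR of the window was a DAR, beside 0.0% of all OCRs, and none passed an unadjusted p under 0.05 in either direction, beside 0.467% of all OCRs lower and 0.353% higher. None reached a fold of 1.5, beside 3.32% lower and 3.86% higher. The groups did not overlap at 1 OCR toward higher values, beside 0.484% of all OCRs, and at none toward lower values, beside 0.363%. That one was OCR -86.3 kb (chr10:102220474-102221243), with 3.95, 3.15, 3.63 and 3.44 CPM in saline and 4.90, 5.32, 4.33 and 4.67 CPM in METH, a log2 fold change of 0.44 (SE 0.22). The median log2 fold change was 0.16 in the window and 0.02 over all OCRs.

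In the SVZ, which lines the lateral ventricles and houses neural stem cells in adult rats, only 2 METH and 3 saline libraries could be compared. The peak names of METH replicate 2 carried the suffix svz-2000g, where those of the other SVZ libraries carried svz. The part of this difference in the SVZ values was not tested. The Sdk2 OCR stood at 5.17, 2.09 and 2.48 CPM in saline and at 3.08 and 1.65 CPM in METH, with no peak in any of the 5 libraries. The log2 fold change was -0.45 (SE 0.55), and without saline replicate 1, the one SVZ library of set 1, it was 0.06. The largest rises by estimate were 0.74 (SE 0.38) at OCR -6.8 kb, where the METH libraries had 16.5 and 13.4 CPM and the saline libraries 16.2, 5.30 and 5.32 CPM, and 0.60 (SE 0.46) at OCR +14.4 kb. They were 1.49 and 1.26 without saline replicate 1 and 0.47 and 0.32 without saline replicate 2. The largest falls by estimate were -0.99 (SE 1.01) at OCR +156.2 kb and -0.66 (SE 0.41) at OCR -171.1 kb. At OCR -171.1 kb the saline libraries had 12.6, 16.1 and 10.8 CPM and the METH libraries 9.15 and 7.42 CPM, which did not overlap.

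In SVZ there was no DAR, beside 0.0% of all OCRs, and no OCR with an unadjusted p under 0.05, beside 2.2% lower and 1.27% higher. A fold above 1.5 was reached by 4 OCRs toward lower values and 2 toward higher, beside 8.37% and 11.0% of all OCRs. With so few libraries, groups failed to overlap often: 6 OCRs were separated toward lower values, beside 9.63% of all OCRs, and 2 toward higher, beside 10.6%. The median log2 fold change was -0.07 in the window and -0.01 over all OCRs.

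Whether the METH effect in DG differed from that in another region was tested directly, as the difference of the log2 fold changes. The 3 differences use the same DG libraries. At the Sdk2 OCR the DG effect was lower than the CA effect by an estimate of -0.95 (SE 0.56, adjusted p = 0.552), than the NAc effect by -0.35 (SE 0.57) and than the SVZ effect by -0.36 (SE 0.67). None passed the test, and for CA the estimate was -2.26 (SE 0.67) within set 1 and -0.12 (SE 0.66) within set 2. The NAc difference was 0.22 within set 2. At no OCR of the window did a difference pass the limits used for DARs, beside 0.0% of all OCRs against CA, against NAc and against SVZ.

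OCR -56.0 kb recurred in all 3 of these differences. The DG effect differed from the NAc effect by -1.66 (SE 0.53, adjusted p = 0.954), from the CA effect by -1.23 (SE 0.52, adjusted p = 0.547) and from the SVZ effect by -1.25 (SE 0.61, adjusted p = 0.87). In NAc it stood at 3.51, 2.24, 1.57 and 2.16 CPM in saline and 3.02, 5.45, 3.78 and 2.72 CPM in METH, so its NAc and DG estimates had opposite signs. An unadjusted p under 0.05 was found at 3 OCRs against CA, at 3 against NAc and at 2 against SVZ. The shares among all OCRs were 8.48%, 2.79% and 4.73%. Besides OCR -56.0 kb, these were OCR +96.3 kb (-1.38) and OCR +232.9 kb (1.06) against CA, OCR +14.4 kb (-1.47) and OCR -171.1 kb (-1.03) against NAc, and OCR -139.3 kb (0.58) against SVZ.

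The second question was how the neighbourhood differed between brain regions without METH. In the 15 saline libraries, 1 of the 44 OCRs differed among the 4 regions at an adjusted p under 0.01, or 2.27% beside 7.51% of all OCRs. It was OCR +133.7 kb (adjusted p = 0.00521). Besides the DG values given above, its saline libraries stood at 10.3, 6.11, 22.6 and 36.5 CPM in CA, at 2.43, 7.95, 7.16 and 4.70 CPM in NAc, and at 6.54, 4.95 and 4.25 CPM in SVZ. All DG libraries lay above all NAc and SVZ libraries, while the CA library with 6.11 CPM lay within the NAc range.

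The authors' peaks at OCR +133.7 kb, called from the reads of the same libraries, followed the same order. CA libraries held 12.2 to 19.4 M reads in OCRs and SVZ libraries 7.55 to 11.4 M. The part of depth in these peak calls was not tested. All 8 DG and all 8 CA libraries had a peak there, with fold enrichments over the local background of 4.54 to 11.7, and 4 of 8 NAc libraries and 0 of 5 SVZ libraries had one. Against the mean of the other 3 regions, the log2 difference of the saline libraries was 1.37 in DG (SE 0.34, adjusted p = 0.0301), 1.15 in CA (adjusted p = 0.0562), -1.20 in NAc (adjusted p = 0.0612) and -1.31 in SVZ (adjusted p = 0.134). The DG difference was 1.54 within set 1 and 1.32 within set 2, whereas the CA difference was -0.07 within set 1 and 1.78 within set 2. The adjusted p of the test over the 4 regions ran from 0.000534 to 0.0184 when each saline library was left out in turn, and it lay above 0.01 without any one of NAc replicates 1, 3 and 4, DG replicates 3 and 4 and SVZ replicates 1, 2 and 3.

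With METH, OCR +133.7 kb kept its high level in CA. The CA METH libraries stood at 25.5, 14.1, 22.1 and 33.9 CPM, a log2 fold change of 0.34 (SE 0.42) that was 1.27 within set 1 and -0.08 within set 2. The NAc METH libraries stood at 6.85, 5.17, 4.43 and 4.04 CPM and the SVZ METH libraries at 5.11 and 4.84 CPM, close to their saline libraries. Of the METH libraries, those of CA and DG replicates 2, 3 and 4 lay above all those of NAc and SVZ, while DG replicate 1 at 5.25 CPM lay among them.

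**Figure D3:**
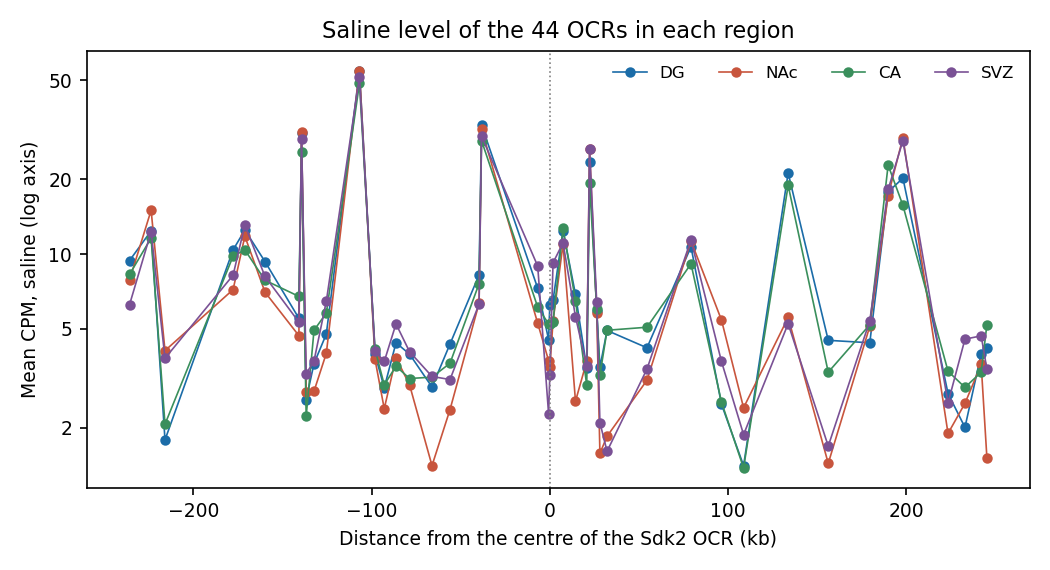
Mean saline accessibility of the 44 OCRs (y axis, CPM, log scale) by distance from the Sdk2 OCR (x axis, kb) in each region, with a dotted line at the Sdk2 OCR and lines that only join neighbouring OCRs. The 4 curves part at OCR +133.7 kb. There DG and CA are at 21.2 and 18.9 CPM and NAc and SVZ at 5.56 and 5.25 CPM. They also part elsewhere, as at OCR +14.4 kb and OCR +245.2 kb, where NAc is lowest at 2.56 and 1.52 CPM.

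The Sdk2 OCR had the same order of regions by its saline means, with 6.26 CPM in DG, 5.25 CPM in CA, 3.51 CPM in NAc and 3.25 CPM in SVZ. The differences were small beside the spread between libraries, and the test over the regions did not pass (adjusted p = 0.357). Against the other 3 regions, DG was higher by an estimate of 0.67 on the log2 scale (SE 0.32, adjusted p = 0.284). Neighbours in this order overlapped, since the CA libraries ran from 2.43 to 8.27 CPM and the SVZ libraries from 2.09 to 5.17 CPM.

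No OCR of the window was set apart in any one region by the stricter limits used here for a region's own OCRs, a log2 difference above 1 at an adjusted p under 0.01. Among all OCRs, 0.155% passed them in DG, 4.66% in NAc, 0.0814% in CA and 0.399% in SVZ. The highest estimate for NAc was 0.93 (SE 0.34, adjusted p = 0.103) at OCR +96.3 kb, where NAc saline had a mean of 5.43 CPM and the other regions had means of 2.49 to 3.70 CPM. The highest for SVZ was 0.90 (SE 0.31, adjusted p = 0.138) at OCR +232.9 kb, with a mean of 4.55 CPM beside 2.01 CPM in DG. Those limits cover only higher values. Toward lower values, the NAc estimate was -1.30 (SE 0.36, adjusted p = 0.0269) at OCR +14.4 kb. It was -1.48 (SE 0.42, adjusted p = 0.0328) at OCR +245.2 kb (chr10:102552149-102552673). Both are named here for these values.

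Next in order of the test over regions was OCR +198.1 kb (chr10:102504952-102505664), with means of 29.4 CPM in NAc saline, 28.6 CPM in SVZ, 20.2 CPM in DG and 15.7 CPM in CA (adjusted p = 0.0209). Here the means of NAc and SVZ lay above those of DG and CA, whereas at OCR +133.7 kb they lay below. OCR +32.1 kb followed, with 4.93 CPM in DG, 4.94 CPM in CA, 1.85 CPM in NAc and 1.61 CPM in SVZ (adjusted p = 0.0305). Both were named after their values were seen, OCR +32.1 kb here for its regions and not for its NAc estimate.

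**Figure D4:**
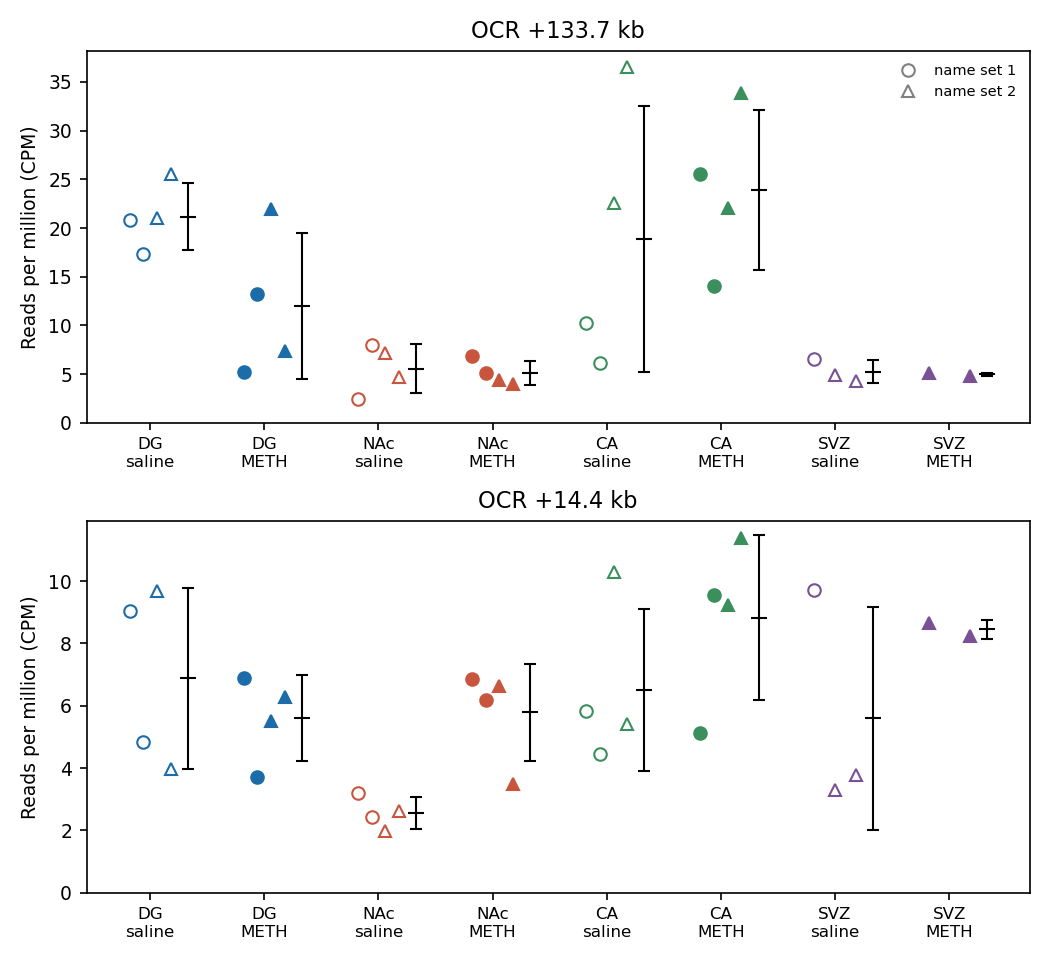
Accessibility (y axis, CPM) of OCR +133.7 kb and OCR +14.4 kb in each of the 29 libraries by region and treatment; circles are set 1, triangles set 2, open symbols saline and filled ones METH, and bars give the mean and SD. At OCR +133.7 kb the DG saline points lie between 17.3 and 25.6, above all NAc and SVZ points; at OCR +14.4 kb the NAc METH points, 3.50 to 6.85, lie above the NAc saline points, 1.98 to 3.21.

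Finally, the 43 other OCRs were ordered by how their log2 CPM went with that of the Sdk2 OCR over the 29 libraries. The libraries share animals, regions and depth, so these values describe likeness only. Pearson's r ran from -0.55 to 0.84 with a median of 0.11. The most alike were OCR +133.7 kb (r = 0.84), OCR -235.8 kb (chr10:102070764-102072096; r = 0.78) and OCR -0.7 kb (r = 0.75), and the least alike was OCR -92.9 kb (chr10:102213988-102214580; r = -0.55). Likeness was mixed among the nearest OCRs, with r = 0.75 at OCR -0.7 kb, -0.11 at OCR +1.8 kb and -0.04 at OCR -6.8 kb. Whether r followed distance over the 43 OCRs was not tested.

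The OCRs most like the Sdk2 OCR shared its low values in DG METH replicates 1 and 4. OCR -235.8 kb stood at 12.5, 9.50, 8.14 and 7.54 CPM in DG saline and at 4.22, 6.71, 10.5 and 4.67 CPM in DG METH, a log2 fold change of -0.53 (SE 0.27). Its CA saline libraries again parted by set, at 6.23 and 5.51 CPM in set 1 and 9.95 and 11.5 CPM in set 2. OCR -92.9 kb ran the other way, with 3.53, 4.53, 1.96 and 1.88 CPM in CA saline and 3.53, 5.25, 2.36 and 4.76 CPM in DG METH. Within CA saline, the set 1 libraries were thus the low ones at OCR +133.7 kb and OCR -235.8 kb. Within DG METH, replicates 1, 2 and 4 were the low ones there. The same libraries were the high ones of these groups at OCR -92.9 kb and OCR +189.8 kb (r = -0.52). OCR +133.7 kb, OCR -235.8 kb and OCR -92.9 kb were picked by their r over these libraries, so such sharing follows in part from the choice. The share of reads in the strongest 10% of OCRs was 55.3% and 57.1% in the set 1 CA saline libraries and 45.5% and 45.9% in those of set 2, and its part in these patterns was not tested.

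**Figure D5:**
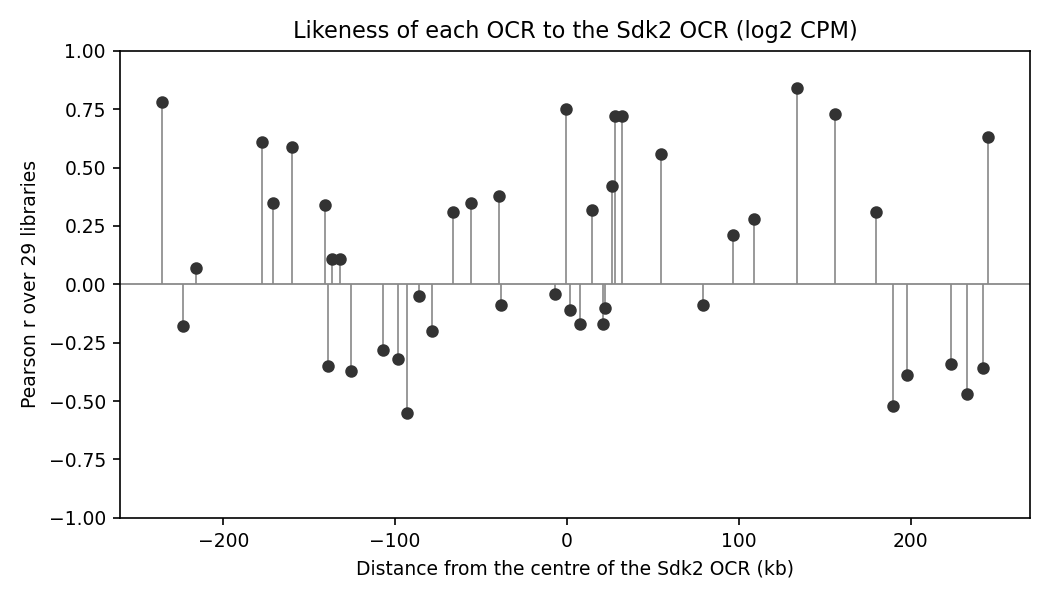
Pearson's r of each OCR with the Sdk2 OCR over the 29 libraries (y axis, log2 CPM) by distance from the Sdk2 OCR (x axis, kb). The values run from -0.55 to 0.84, with the highest at OCR +133.7 kb, far from the Sdk2 OCR.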

How the data were processed

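The authors deposited raw read counts per consensus OCR for 29 libraries, and per library a narrowPeak file of peaks with a fold enrichment over local background and −log10 p- and q-values. Per the study's methods, reads were processed with the AIAP pipeline on rn6, and peaks were merged over libraries with bedtools into the consensus OCRs; versions are not given in the sources used here. From the deposited counts, edgeR 4.0.16 (R 4.3.3) fitted a quasi-likelihood model to all 98237 OCRs and 8 groups, with upper-quartile normalization, trended dispersions and a robust fit; filterByExpr removed no OCR. Adjusted p-values are Benjamini-Hochberg values over all OCRs. DARs had a fold change above 1.5 and an adjusted p under 0.001. The saline libraries were fitted alone for regions, by an F test with 3 degrees of freedom. CPM used the upper-quartile library sizes, and likeness used log2 CPM with a prior count of 2. An OCR had a peak where at least 1 bp overlapped; the deposited fold ratio was copied and the deposited −log10 values were used only as a filter in an alternative.

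The members, lists and tests were chosen with earlier results of these data known. Named OCRs were, by rule, the Sdk2 OCR, its neighbours, the 2 largest rises and falls by estimate in each region, the strongest and the widest, the highest of each region in saline, the 3 most and the 1 least alike to the Sdk2 OCR, and any past a threshold; other OCRs are named where a small count was itemized. Libraries of one group differed by more than sampling noise (chi-square per degree of freedom at least 3.4 over 40 pairs), so none was counted as a duplicate. Within a region, METH and saline libraries came from different rats. The spread behind these p-values was estimated over all 8 groups, and not from the region alone. With each region fitted alone, the SE at the Sdk2 OCR in NAc was 0.31 beside 0.41. In DG it was 0.42 beside 0.40, with an adjusted p of 0.687 beside 0.493. Every animal number recurs in several regions, and the main models held no animal term. The pooled estimate of the spread, the saline region tests and the differences of effects thus treated libraries that share a rat as independent. Equal replicate numbers in METH and saline mark different rats. Alternatives were TMM and loess normalization, no filter, 1 or 5 RUVr factors and the replicate number as a block. Others were each region alone, DESeq2 1.42.0 and leaving out each library. The animal as a block was an alternative for the saline fits only. The 2 name sets were added after the data were seen. The fits were also run on simulated counts, drawn independently for each library. These held no shared rats, name sets or differences in the share of the strongest OCRs, so the run does not bear on those features. Depth limits precision: the Sdk2 OCR had 16 to 180 reads in a library.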

Additional observations from a re-analysis of the deposited data

Results flagged for a closer look

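In groups of 4 libraries, a single library stood apart from the other 3 at 2 of the 126 tests over the 21 named OCRs and 6 groups, where chance alone gives about 1 in 20. That rate is for OCRs chosen without regard to their values, and many of the named ones were chosen by them. At the Sdk2 OCR, DG METH replicate 3 had 6.99 CPM, and the other 3 DG METH libraries had 2.15 to 2.75 CPM; the gap was 0.876 of the group's range. At OCR -66.1 kb, NAc METH replicate 3 had 6.74 CPM beside 1.61 to 2.18 CPM in the others, a gap of 0.89 of the range. That OCR was named for its NAc rise, which was 1.12 with this library and 0.39 without it. Its flag thus follows in part from the choice. The 2 flagged libraries carry the same animal number in their peak names.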

How the results depend on the processing

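Of 1110 values recomputed for 57 results, 982 kept their direction and side of the threshold or moved by less than the spread between libraries. With 5 RUVr factors, 1 OCR of the window was a DAR in DG and 1 differed between the DG and CA effects; both were OCR +133.7 kb, at -0.93 and -1.46, beside 4.24% and 3.41% of all OCRs, and these factors were estimated from the same residuals that set the error. The count of OCRs that differed among regions in saline was 2 with the animal as a block (9.21% of all OCRs), 3 with DESeq2 (14.7%), 0 in name set 1 and 0 to 2 when a library was left out, and the OCRs added were OCR +198.1 kb and OCR +32.1 kb. The count above the other regions was 1 in DG with DESeq2 and 0 to 1 when a library was left out; in CA it was 1 in the METH libraries, 1 in name set 2 and 0 to 1 when a library was left out. The cause of these changes was not tested.

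Signs turned for estimates that had not passed the test. At the Sdk2 OCR the CA estimate was -0.32 in name set 2 and -0.09 to 0.46 when a library was left out, and the SVZ estimate was 0.06 in name set 2 and -0.97 to 0.06 when a library was left out. The difference of the DG effect from the NAc effect was 0.22 in name set 2, and from the SVZ effect it was -0.90 to 0.17 when a library was left out. At OCR +133.7 kb the NAc estimate was 0.21 in name set 1 and -0.37 to 0.09 when a library was left out, the CA estimate was -0.08 in name set 2, the SVZ estimate was 0.11 in name set 2 and -0.21 to 0.11 when a library was left out, and the CA difference from the other regions in saline was -0.07 in name set 1. OCR +96.3 kb in NAc was 0.14 in name set 1, and OCR +189.8 kb in CA was 0.27 in name set 2.

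Equal replicate numbers did not mark the same rat in METH and saline. The deviations of such libraries correlated at -0.26 to 0.69 over 14 pairs, and 7 were above 0.1. In CA replicates 1 to 4 gave 0.05, 0.69, 0.44 and 0.57, while the other regions ran from -0.26 to 0.38. What CA libraries of equal number share was not tested. With the replicate number as a block, the Sdk2 OCR in DG was at -0.85 (adjusted p = 0.35), OCR +133.7 kb in SVZ turned to 0.03, and its test over regions in saline moved to an adjusted p of 0.0101. No window OCR was a DAR in any region with DESeq2. The SEs of the log2 fold changes had medians of 0.34 to 0.45 in the 4 regions, which limits the size of a change that these libraries could show.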
